A study of Bos taurus with 50 samples.

Results

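Among the 18830 genes counted in endometrium of dairy cows, 16 were followed as genes of mitochondrial respiration and the mitochondrial ribosome: MRPS36, OGDH, IDH2, IDH1, MRPL19, MRPL32, MRPL10, MRPL11, MRPS18B, MRPS26, NDUFB10, NDUFA4L2, COX11, CHCHD10, PRDX6 and COASY. They were chosen by symbol, from name stems such as NDUF, COX, MRPL, MRPS, IDH, OGDH and PRDX, among the 2324 genes that carry a symbol in the study's own lists of called genes. The choice therefore rests on measured values: 7 of the 16 were listed for cyclicity status at week 5, 9 for the week change in non-cycling cows, 4 for a microbiota axis of week 1 and 1 for cyclicity status at week 9, with some listed more than once. Values from those comparisons, and from any that share their libraries, are given as description, without P-values for single genes; genes called there are counted only beside the share of all genes called. Results of a test are given gene by gene for the 16 only in the week change of a group of cows that the study left out of its analysis. All 16 passed the filter on low counts, and the lowest count of any of them in any library was 102 reads.

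RNA came from endometrial biopsies of dairy cows in their first lactation, of mixed Holstein and Jersey breeding. CycW5 cows were cycling at week 5 postpartum, with a corpus luteum present and circulating progesterone (P4); 10 libraries came from week 5 and 10 from week 9. NoCycW5 cows had no corpus luteum at week 5 and undetectable P4 up to then, with 12 libraries at week 5 and 11 at week 9. CycNoP4 cows had begun to cycle, with high P4 at week 4, but had little circulating P4 when sampled at week 5, with 4 libraries at week 5 and 3 at week 9. After the week 5 biopsy all cows went through the same ovulation synchronization with GnRH, a progesterone insert and prostaglandin, so that the week 9 biopsy fell on a fixed day of the luteal phase. By the study's design the same cows were biopsied at both weeks, so libraries of the weeks share cows within each group. The labels do not link libraries to cows, so weeks were compared as unpaired groups. P-values of week changes therefore treat libraries of the same cow as independent and measure the spread between libraries, not between cows. Reads counted on genes numbered 21592867 to 32813237 per library.

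Mitochondria oxidize acetyl-CoA through the citrate cycle and pass the electrons to complexes I to IV of the respiratory chain in the inner membrane, and the proton gradient that results drives ATP synthase. A few core subunits of these complexes are encoded in mitochondrial DNA and made by the mitochondrial ribosome, whose proteins (MRPL and MRPS) are nuclear encoded and imported. In the endometrium, glandular and luminal epithelium become secretory under progesterone, which is costly in energy and in biosynthetic precursors. The 16 names do not all belong to respiration or translation. IDH1 is the cytosolic isocitrate dehydrogenase, PRDX6 is a largely cytosolic peroxiredoxin with phospholipase activity, and COASY makes coenzyme A. MRPS36 is named as a protein of the small ribosomal subunit, but is also known as KGD4, a subunit that joins the parts of the 2-oxoglutarate dehydrogenase complex, of which OGDH is the first enzyme.

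The name stems left out 13 further genes of the same pathways that carry a symbol in the study's lists, among them CYTB and ND3, which are encoded in mitochondrial DNA. With the 16 they make 29 genes, called the 29 below. No nuclear-encoded subunit of complexes II, III or V and no gene of protein import had a symbol, so the 29 are not a sample of the pathway. Of 16120 genes tested across all 50 libraries with edgeR's quasi-likelihood test, 25.6% were called (P adjusted by Benjamini-Hochberg, BH P, of at most 0.05) between CycW5 and NoCycW5 cows at week 5, 14.5% higher and 11.1% lower in CycW5 cows. Of the 16 genes 12 were among them, 9 higher and 3 lower, and of the 29, 20 (17 higher and 3 lower). Between week 9 and week 5, 34.4% of genes were called in NoCycW5 cows, 18.4% higher and 16.1% lower at week 9, with 13 of the 16 (10 higher and 3 lower) and 22 of the 29 (16 higher and 6 lower). In CycW5 cows, 0.124% of genes were called between the weeks (0.062% higher and 0.062% lower), with 0 of the 29. With edgeR the unadjusted P was under 0.05 for 9 of the 29, beside 2199 of the 16120 genes tested. DESeq2 called 251 genes, limma-voom 0 and limma-voom with library weights 3013, of them 10 of the 29. These counts repeat the choice of the genes and nothing is read from them.

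At week 9, 0% of genes were called between CycW5 and NoCycW5 cows by edgeR's quasi-likelihood test, although 934 had an unadjusted P under 0.05; limma-voom called 0 genes and DESeq2 called 15. None of the 29 was called by any of these tools, and 1 had an unadjusted P under 0.05 with edgeR. The log2 fold changes of the 16 genes there lay between -0.08 and 0.30, with a median of 0.08 beside a median of 0.02 over all genes.

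On the first principal component of log2 CPM (31.7% of the variance), NoCycW5 and CycNoP4 libraries of week 5 lay at the positive end and most week 9 libraries at the negative end. A few libraries stood apart from their labels, closer to the NoCycW5 week 5 median than to the median of their own group. They were library 57 (CycW5, week 5), libraries 87 and 89 (CycW5, week 9) and libraries 76 and 91 (NoCycW5, week 9). As these 5 were picked from the same counts, they were kept in the main values and left out as an alternative.

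Of the 16 genes, MRPS36, OGDH, IDH2 and IDH1 had the largest log2 fold changes between CycW5 and NoCycW5 cows at week 5. At week 5, MRPS36 was at 23.4 to 54.8 CPM (TMM-normalized read counts scaled to a common library size) in the 12 NoCycW5 libraries, with a median of 30.01. In the 10 CycW5 libraries it was at 32.2 to 1244 CPM, with a median of 478. The CycW5 value of 32.2 CPM was that of library 57, and the next lowest CycW5 library was at 235 CPM, so that the groups overlapped only through library 57. The log2 fold change for CycW5 against NoCycW5 cows was 4.11 ± 0.49 (SE), and 4.26 without the 5 libraries. In the CycNoP4 libraries of week 5, MRPS36 was at 30.4, 50.3, 50.2 and 28.9 CPM, within the range of the NoCycW5 libraries. At week 9 it was at 35.3 to 790 CPM (median 178) in NoCycW5 cows and at 46.6 to 1008 CPM (median 151) in CycW5 cows, and these ranges overlapped. Libraries 76 and 91 held the lowest NoCycW5 values and library 87 the lowest CycW5 value.

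**Figure D1:**
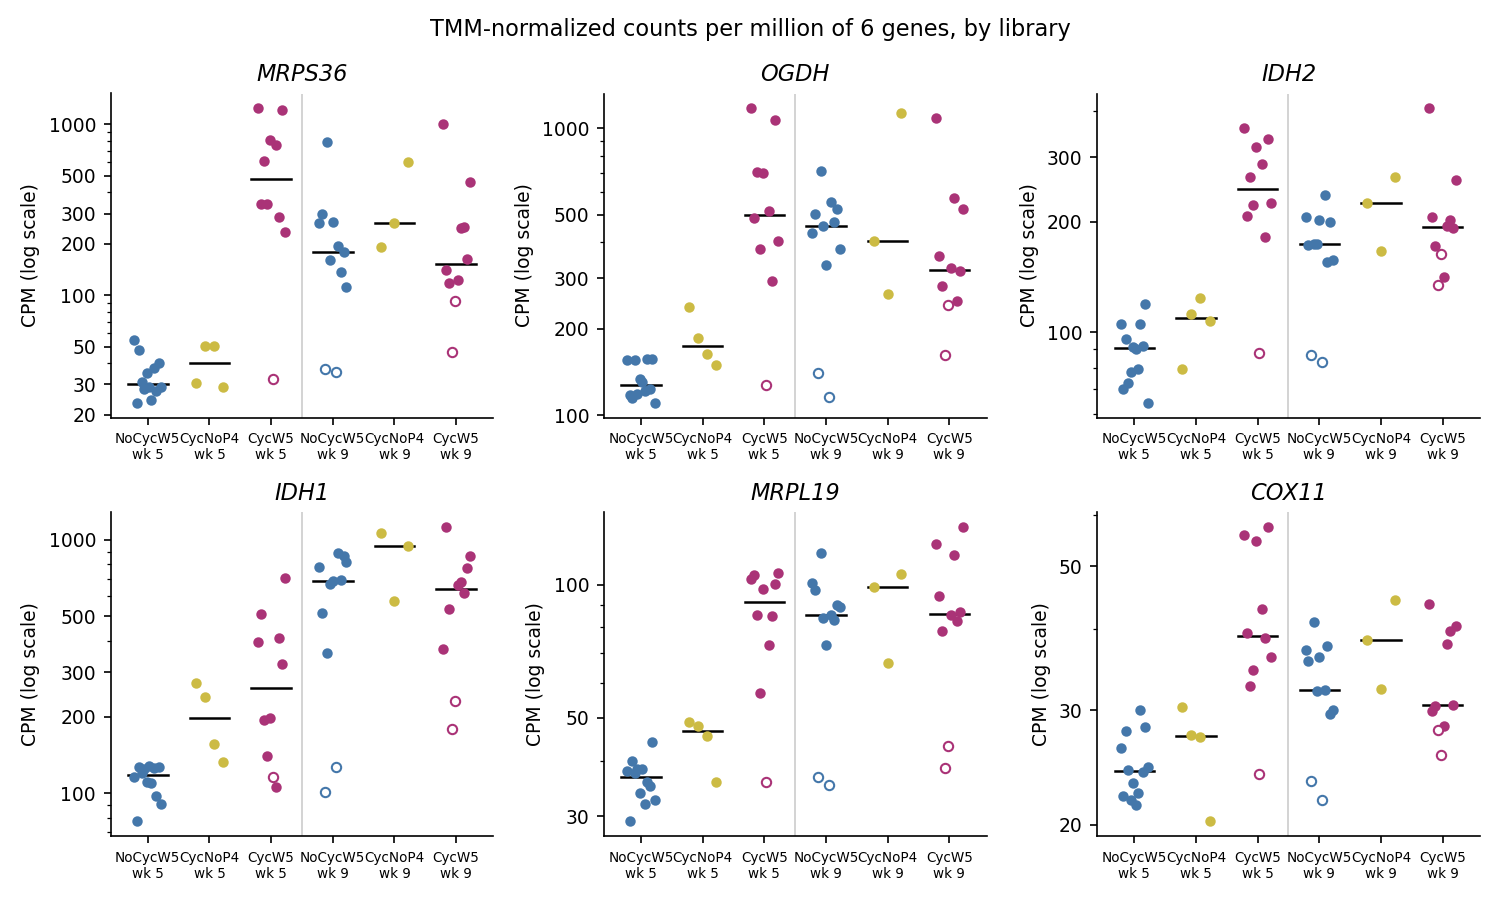
Each point is the CPM of a gene in 1 library, on log axes, for NoCycW5, CycNoP4 and CycW5 cows at week 5 (left of the grey line) and week 9 (right); black bars are group medians and open points are the 5 libraries that stood apart. MRPS36 medians were 30.01 CPM in NoCycW5 and 478 CPM in CycW5 libraries of week 5, and the CycNoP4 libraries of week 5 lie with the NoCycW5 ones for MRPS36, while IDH1 medians are higher at week 9 than at week 5 in all 3 groups.

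OGDH, the enzyme that decarboxylates 2-oxoglutarate, was at 110.6 to 157 CPM (median 127) in NoCycW5 libraries of week 5 and at 128 to 1172 CPM (median 499) in CycW5 libraries. Again the lowest CycW5 library was library 57, the only one within the NoCycW5 range. The log2 fold change was 2.13 ± 0.30. CycNoP4 libraries of week 5 were at 237.5, 185, 164 and 149.7 CPM, between the medians of the other groups. At week 9, OGDH was at 116 to 710 CPM (median 457) in NoCycW5 cows and 162 to 1080 CPM (median 321) in CycW5 cows, with a log2 fold change of -0.03 ± 0.30 between them.

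IDH2, the mitochondrial NADP-dependent isocitrate dehydrogenase, was at 64.2 to 119.6 CPM (median 90.7) in NoCycW5 and 87.5 to 359.9 CPM (median 245) in CycW5 libraries of week 5. The log2 fold change was 1.49 ± 0.18. CycNoP4 libraries of week 5 were at 79.1 to 124 CPM, which overlapped the NoCycW5 libraries and, through library 57, the CycW5 libraries. At week 9 the medians were 174 CPM in NoCycW5 and 193 CPM in CycW5 cows.

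IDH1, the cytosolic counterpart that makes NADPH outside the mitochondrion, was ordered differently. It was at 77.3 to 128 CPM (median 118) in NoCycW5 libraries and 106 to 708.5 CPM (median 260.5) in CycW5 libraries of week 5, for a log2 fold change of 1.46 ± 0.31. The 4 CycNoP4 libraries of week 5, at 273, 239, 156 and 133 CPM, all lay above the 12 NoCycW5 libraries. Of the 16 genes IDH1 was the only one whose groups did not overlap in that comparison, beside 0.862% of all genes tested. At week 9, IDH1 was at 101 to 891 CPM (median 690.2) in NoCycW5 and 178 to 1128 CPM (median 639) in CycW5 cows. Its log2 fold change for week 9 against week 5 in CycW5 cows was 0.96 ± 0.32, whereas that of MRPS36 was -1.15 ± 0.47 and that of OGDH -0.50 ± 0.30.

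Other genes with a symbol were DLST (the succinyltransferase of the OGDH complex) and DLD (the dihydrolipoyl dehydrogenase shared with pyruvate dehydrogenase). At week 5 their log2 fold changes for CycW5 against NoCycW5 cows were 0.14 ± 0.05 for DLST and 0.33 ± 0.09 for DLD. PDP2, a phosphatase that activates pyruvate dehydrogenase, had 0.90 ± 0.15. Among enzymes of fatty acid oxidation, the isomerase ECI2 had 2.01 ± 0.43 and the acyl-CoA dehydrogenase ACADVL 0.56 ± 0.14. From week 5 to week 9 in NoCycW5 cows ECI2 had 2.65 ± 0.43 and ACADVL had 0.73 ± 0.14.

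**Figure D2:**
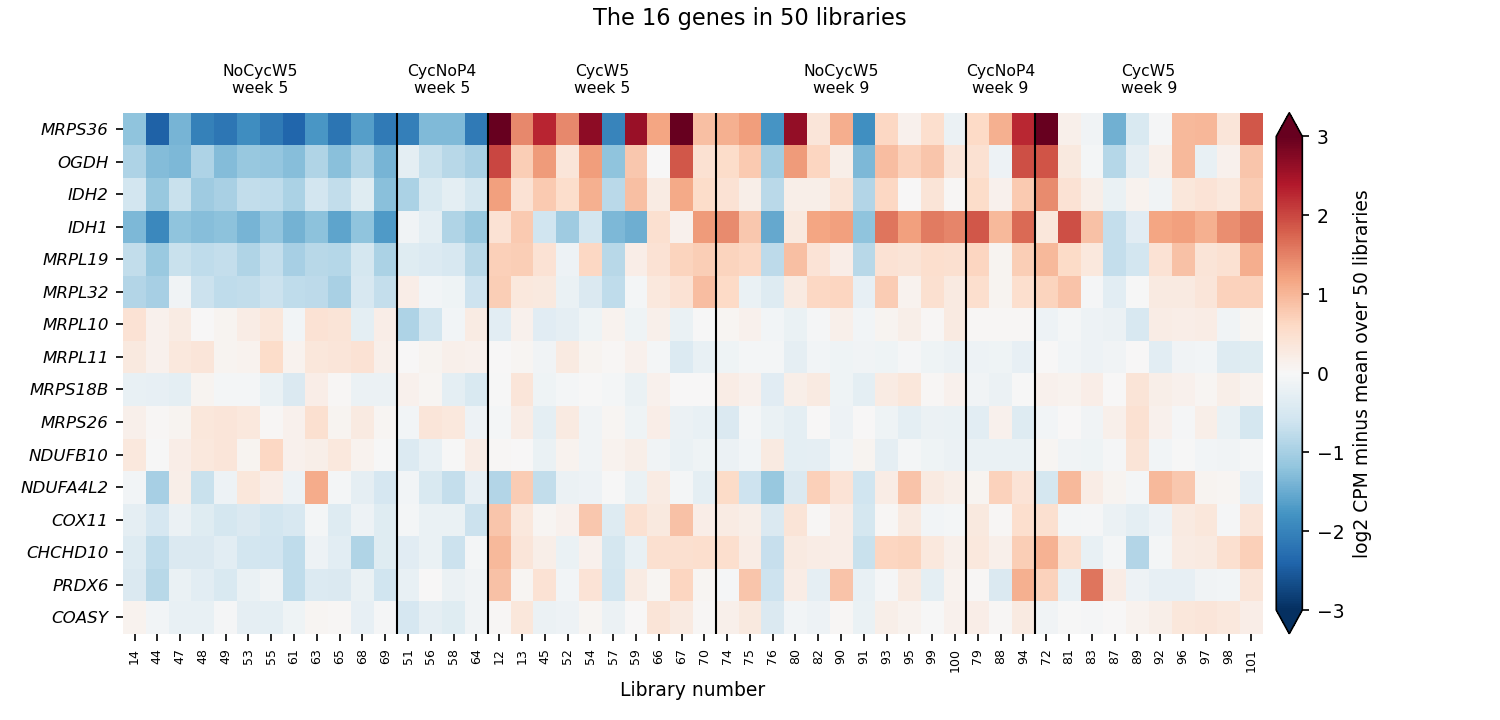
Rows are the 16 genes and columns the 50 libraries, by group and library number; colour is log2 CPM minus the mean of the gene over the 50 libraries, from blue (below the mean) to red (above). MRPS36, OGDH, IDH2 and IDH1 span the widest colours, the ribosomal proteins MRPL10, MRPL11, MRPS18B and MRPS26 stay near the mean, and in libraries 57, 76 and 91 MRPS36 (32.2, 37.1 and 35.3 CPM) has the blue of the NoCycW5 libraries of week 5.

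For genes named as proteins of the mitochondrial ribosome, log2 fold changes between CycW5 and NoCycW5 cows at week 5 had both signs, which is given as description. In the large subunit, MRPL19 was at 29.2 to 44.1 CPM (median 36.7) in NoCycW5 and 35.8 to 106 CPM (median 91.5) in CycW5 libraries of week 5. Except for library 57, every CycW5 library was above the NoCycW5 range, and the log2 fold change was 1.23 ± 0.18. MRPL32 was at 12.0 to 22.2 CPM (median 14.4) in NoCycW5 and 14.2 to 45.6 CPM (median 29.8) in CycW5 libraries, with a log2 fold change of 0.93 ± 0.16. In CycNoP4 libraries of week 5 it was at 27.8, 22.7, 21.98 and 15.6 CPM, overlapping both groups. MRPL10 and MRPL11 had the opposite sign, at -0.28 ± 0.10 and -0.29 ± 0.06. MRPL11 was at 44.4 to 60.8 CPM (median 51.8) in NoCycW5 libraries of week 5 and 34.7 to 40.7 CPM (median 38.4) in those of week 9. These ranges did not overlap, although the log2 fold change for week 9 was only -0.40 ± 0.06.

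In the small subunit, MRPS18B was at 18.96 to 29.3 CPM (median 22.6) in NoCycW5 and 22.2 to 32.9 CPM (median 25.4) in CycW5 libraries of week 5, and these ranges overlapped (log2 fold change 0.13 ± 0.08). MRPS26 was at 27.4 to 37.3 CPM (median 29.7) in NoCycW5 libraries of week 5, while in those of week 9 its median was 23.97 and its highest value 27.1 CPM, again without overlap. Of the 16 genes MRPL11 and MRPS26 were the 2 whose NoCycW5 libraries did not overlap between the weeks, beside 0.757% of all genes tested. The gene described as ribosomal protein L12 of the large subunit, which carries no symbol, had a log2 fold change of 0.37 ± 0.08 for CycW5 against NoCycW5 cows at week 5 and of 0.37 ± 0.08 for week 9 in NoCycW5 cows.

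Few genes of the respiratory chain could be followed, and their log2 fold changes at week 5, given as description, had both signs. NDUFB10, an accessory subunit of complex I, was at 65.9 to 102.7 CPM (median 75.9) in NoCycW5 and 58.4 to 75.2 CPM (median 64.9) in CycW5 libraries of week 5, a log2 fold change of -0.25 ± 0.07. NDUFA4L2, a paralog of the complex IV subunit NDUFA4 known as a target of hypoxia signalling, varied more within groups, at 4.08 to 17.8 CPM in NoCycW5 and 4.43 to 13.9 CPM in CycW5 libraries of week 5. Its log2 fold change was -0.09 ± 0.22. COX11, which delivers copper to cytochrome c oxidase, was at 21.4 to 30.03 CPM (median 24.2) in NoCycW5 and 23.9 to 57.5 CPM (median 39.1) in CycW5 libraries of week 5, where only library 57 lay within the NoCycW5 range. Its log2 fold change was 0.76 ± 0.12. CHCHD10, a small protein of the intermembrane space linked to cristae, was at 8.69 to 14.6 CPM (median 12.1) and 11.3 to 32.2 CPM (median 19.7) in the same groups, which overlapped, with a log2 fold change of 0.76 ± 0.17. Among genes known only by a description, subunit C2 of NADH dehydrogenase (complex I) had a log2 fold change of 0.50 ± 0.11, with the sign opposite to that of NDUFB10. The electron carrier cytochrome c had 0.53 ± 0.19 and the epsilon subunit of ATP synthase -0.03 ± 0.22. Of the assembly factors outside the 16, the insertase OXA1L had 0.27 ± 0.11, the complex III factor TTC19 0.31 ± 0.08 and the ATP synthase factor ATPAF2 0.28 ± 0.09.

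PRDX6, the gene listed for cyclicity status at week 9, was at 194 to 540.3 CPM (median 293) in NoCycW5 and 252.5 to 909 CPM (median 281) in CycW5 libraries of week 9. The medians lay in the opposite order from the highest values, and the log2 fold change was 0.17 ± 0.20. The study's listing used fewer cows and a model that held cow and microbiota, so it cannot be set directly against this fold change. The value of 909 CPM was that of library 83, with the next CycW5 library at 486 CPM, so the fold change leans on that library. COASY was at 25.1 to 33.3 CPM (median 28.8) in NoCycW5 and 27.3 to 40.5 CPM (median 31.6) in CycW5 libraries of week 5. The ranges overlapped, and the log2 fold change was 0.18 ± 0.08.

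COASY, PRDX6 and NDUFA4L2 each overlap another gene in RefSeq's ARS-UCD2.0 annotation, and the strand setting of the counting is not given, so their values may include reads of a neighbour. The difference between the week changes of NoCycW5 and CycW5 cows, on the log2 scale, was 3.88 ± 0.65 for MRPS36, 2.16 ± 0.42 for OGDH, 1.43 ± 0.44 for IDH1, 1.19 ± 0.26 for IDH2 and 1.10 ± 0.26 for MRPL19. Over all genes 7.66% were called for that difference (4.93% higher and 2.72% lower), and 10 of the 29 (8 higher and 2 lower). This contrast is built from those that chose the genes and nothing is read from it.

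At week 5, CycNoP4 cows were compared with both other groups, to which the choice of genes is tied. Against NoCycW5 cows 16.4% of all genes were called (9.92% higher and 6.52% lower in CycNoP4 cows). Of the 16, 2 were called (0 higher and 2 lower), and of the 29, 7 (5 higher and 2 lower). Without library 51 these counts were 0 of the 16 and 0 of the 29, beside 0.95% of all genes. Without library 56 they were 0 of the 16 and 1 of the 29, beside 5.3% of all genes. Without library 64 they were 3 of the 16 and 9 of the 29, beside 29.6% of all genes. Against CycW5 cows 17.9% were called (9.62% higher and 8.29% lower), with 6 of the 16 (all lower) and 7 of the 29 (1 higher and 6 lower). Groups did not overlap in this last comparison for 2.65% of all genes and for none of the 16. These comparisons share the CycNoP4 libraries. Log2 fold changes against NoCycW5 and against CycW5 cows were 0.24 ± 0.59 and -3.88 ± 0.77 for MRPS36, 0.47 ± 0.38 and -1.67 ± 0.44 for OGDH, and 0.83 ± 0.40 and -0.63 ± 0.44 for IDH1. The regulator PPRC1, a coactivator of nuclear genes for mitochondria, had 0.57 ± 0.16 and 0.69 ± 0.16, and the cytochrome c gene had 1.23 ± 0.24 and 0.70 ± 0.25. The CycNoP4 libraries of week 5 spanned 55.3 to 151.5 CPM for PPRC1 and 27.1 to 122.9 CPM for cytochrome c, overlapping both other groups. For ECI2 the value against NoCycW5 cows, 1.57 ± 0.53, came from library 51 alone, without which it was -0.16.

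The week change of the CycNoP4 cows is the comparison whose libraries did not enter the choice. Its libraries of both weeks come from the same few cows but were tested as unpaired and independent. From week 5 to week 9, 6 of the 16 genes were called by edgeR's quasi-likelihood test (37.5%, beside 19.6% of all genes tested), and all 6 rose: MRPS36, OGDH, IDH1, IDH2, MRPL19 and COASY. Called higher were 9.74% of all genes and called lower 9.85%. The libraries are separate, but the 16 were still drawn only from genes the study had called. Of them 9 were listed for the week change in NoCycW5 cows. All genes are therefore not a matched background for the 16, and the share called among the study's listed genes was not computed. Nothing about the pathway is read from the count of 6. MRPS36 was at 30.4, 50.3, 50.2 and 28.9 CPM in the libraries of week 5 and at 190.4, 266 and 602 CPM in those of week 9. Every week 9 library was above every week 5 library, and the log2 fold change was 3.14 ± 0.82 (edgeR, BH P = 0.0089; range over alternatives 0.000485 to 0.0587). IDH1 was at 273, 239, 156 and 133 CPM at week 5 and at 1063, 574 and 947 CPM at week 9. It too was separated by week, with a log2 fold change of 2.11 ± 0.55 (edgeR, BH P = 0.00925; range 0.000242 to 0.0422), and it was called under all 15 alternatives.

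OGDH, measured in the same libraries, was at 237.5, 185, 164 and 149.7 CPM at week 5 and at 403, 264 and 1124 CPM at week 9. The groups did not overlap, but the value of 1124 CPM in library 94 carried much of the difference. With that library the log2 fold change was 1.70 ± 0.52 (edgeR, BH P = 0.0199) and without it 0.83 (BH P = 0.322). Over all alternatives BH P was between 0.00232 and 0.322.

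IDH2 was at 79.1 to 124 CPM at week 5 and at 166 to 265 CPM at week 9, a log2 fold change of 1.05 ± 0.32 (edgeR, BH P = 0.0193; range 0.00162 to 0.104). MRPL19 was at 48.9, 47.9, 45.5 and 35.7 CPM at week 5 and at 98.8, 66.5 and 105.9 CPM at week 9. The groups did not overlap for either gene, and MRPL19 had a log2 fold change of 1.02 ± 0.32 (edgeR, BH P = 0.0223; range 0.00015 to 0.104). COASY was at 21.8, 25.6, 24.1 and 28.9 CPM at week 5 and at 35.4, 31.6 and 37.4 CPM at week 9, a smaller but separated difference of 0.47 ± 0.14 on the log2 scale (edgeR, BH P = 0.0164; range 0.00588 to 0.103). The count of called genes leaned on single libraries of this small group: without library 94 it was 1 of 16 (IDH1), beside 8.07% of all genes, without library 79 it was 3, beside 7.95%, and without library 51 it was 4, beside 10.2%. Without the 5 libraries of other groups that stood apart it was 8, beside 27.3% of all genes.

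The other 10 genes did not pass the test. Among them CHCHD10 had a log2 fold change of 0.71 ± 0.30 (edgeR, BH P = 0.0793) and COX11 of 0.55 ± 0.21 (BH P = 0.0575), whereas MRPL11 had -0.27 ± 0.11 (BH P = 0.0723) and MRPS26 -0.31 ± 0.15 (BH P = 0.145). MRPL32, MRPL10, MRPS18B, NDUFA4L2, NDUFB10 and PRDX6 had BH P between 0.154 and 0.916. A gene that misses the threshold with 3 libraries against 4 is not shown to be unchanged. Libraries of the weeks did not overlap for 10 of the 16 genes, 9 higher and 1 lower at week 9, beside 26.3% of all genes tested. The median log2 fold change of the 16 was 0.53, beside -0.02 over all genes tested. As the 16 were chosen among genes the study had called, nothing about the pathway is read from these values.

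**Figure D3:**
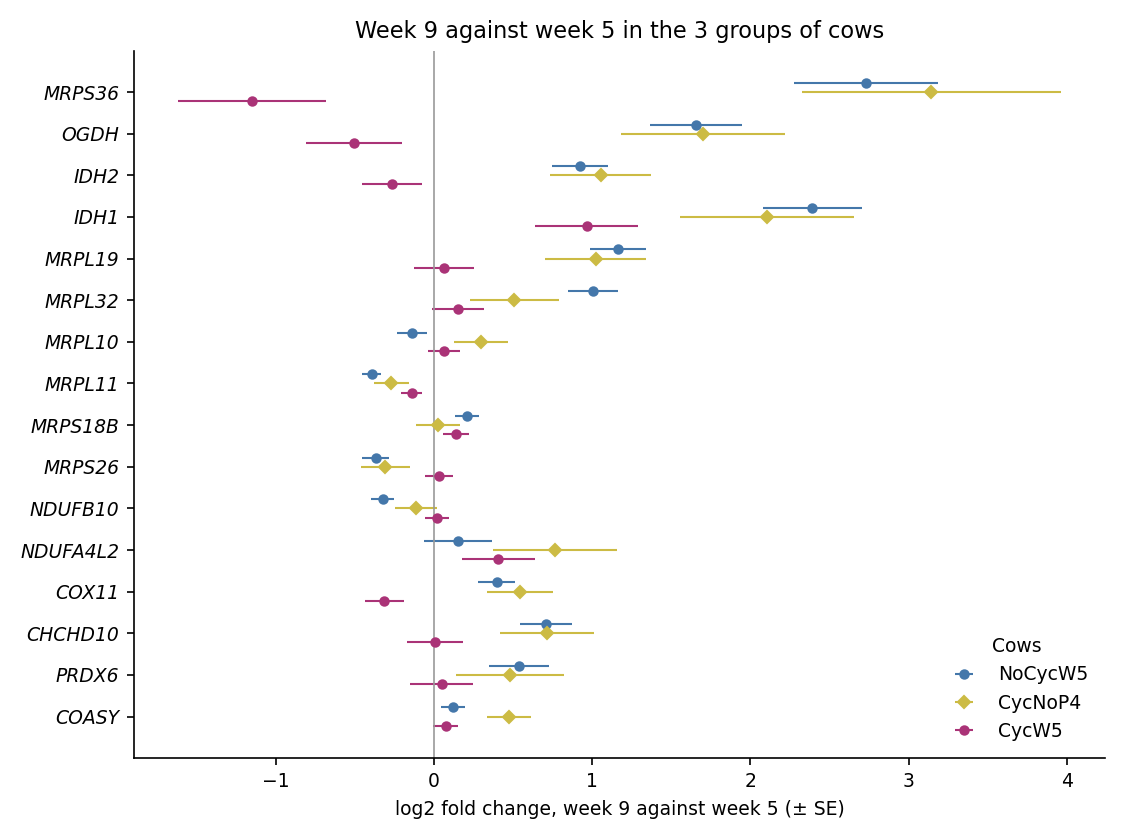
Points are log2 fold changes for week 9 against week 5 with bars of 1 SE, for NoCycW5 (blue), CycNoP4 (yellow diamonds) and CycW5 cows (purple). MRPS36 lies at 2.73 in NoCycW5, 3.14 in CycNoP4 and -1.15 in CycW5 cows, and IDH1 is above 0 in all 3 groups; the NoCycW5 and CycW5 values are a description, since the genes were chosen on those cows.

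Values of the other groups are set beside these for orientation. From week 5 to week 9 the log2 fold change in NoCycW5 cows was 2.73 ± 0.45 for MRPS36, 1.66 ± 0.29 for OGDH, 2.39 ± 0.31 for IDH1, 0.92 ± 0.18 for IDH2, 1.16 ± 0.18 for MRPL19 and 0.12 ± 0.08 for COASY. Whether the changes of the CycNoP4 and NoCycW5 cows differ was not tested.

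Among the 13 genes outside the 16, the same test in CycNoP4 cows called 3, beside the 19.6% called among all genes. OXA1L, which inserts proteins into the inner membrane, rose by 0.83 ± 0.20 on the log2 scale (edgeR, BH P = 0.00591; range over alternatives 0.00029 to 0.0529). PPRC1 fell by 1.01 ± 0.22 (BH P = 0.0035; range 0.000144 to 0.0919) and CYTB, the mitochondrially encoded cytochrome b of complex III, fell by 0.96 ± 0.30 (BH P = 0.0215; range 0.00231 to 0.0712). ND3, a mitochondrially encoded subunit of complex I, had -0.63 ± 0.26 (BH P = 0.0717) and the coactivator PPARGC1B -1.14 ± 0.55 (BH P = 0.127). The gene described as cytochrome c, without a symbol, was called at -1.09 ± 0.34 (BH P = 0.0219; range 0.00249 to 0.157), though its week 5 and week 9 libraries overlapped.

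CYTB and ND3 together took 0.406 to 0.815% of counted reads in NoCycW5 libraries of week 5 (median 0.654%) and 0.404 to 0.716% in CycW5 libraries of week 5 (median 0.590%). At week 9 the medians were 0.355% in NoCycW5 and 0.351% in CycW5 libraries. The libraries that stood apart were the highest of their groups at week 9, at 0.553% and 0.732% (libraries 76 and 91) and 0.575% and 0.599% (libraries 87 and 89). In CycNoP4 cows the share was 0.514% ± 0.0747 (SD, n = 4) at week 5 and 0.311% ± 0.0104 (SD, n = 3) at week 9. The week 9 libraries all lay below the week 5 libraries (exact permutation test, two-sided, P = 0.0571, the smallest that 3 against 4 libraries allow, so that the design cannot reach 0.05). That permutation test also treated libraries of the same cows as independent. Libraries were selected for polyadenylated RNA, and how that bears on mitochondrial transcripts was not tested.

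**Figure D4:**
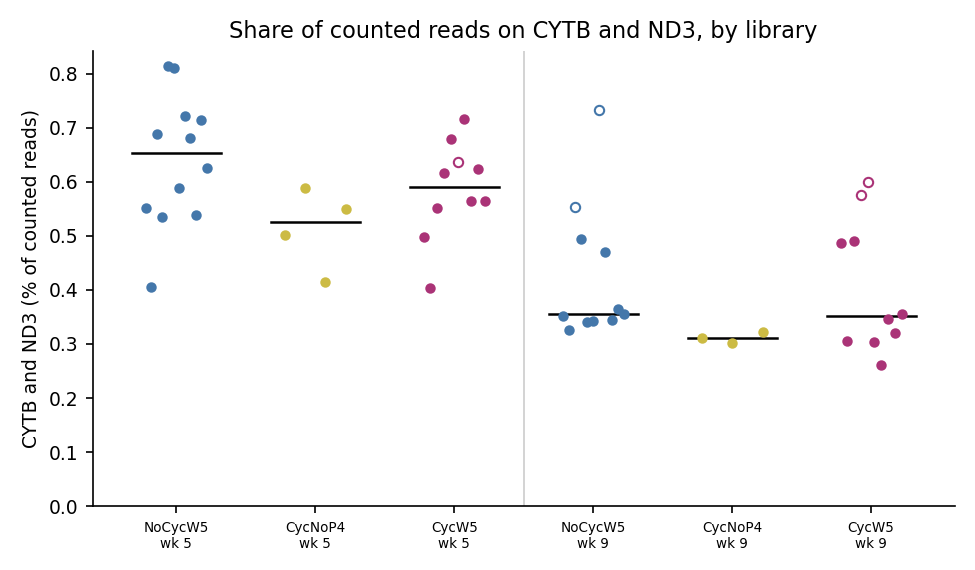
Each point is the percentage of a library's counted reads that fell on CYTB and ND3, by group, with week 5 left and week 9 right of the grey line; black bars are medians and open points the 5 libraries that stood apart. Shares at week 9 have medians of 0.355% (NoCycW5) and 0.351% (CycW5), below those of week 5, and the open points of week 9 lie at week 5 levels.

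Within groups, MRPS36 was compared with each of the other 15 genes across libraries, without the 5 libraries that stood apart. Correlations of log2 CPM were computed in the 4 groups with at least 6 libraries, 60 relations in all. As the genes were chosen on these cows and MRPS36 was taken as reference after its values were seen, the correlations are a description without P-values, and the relations named were also chosen after their values were seen. In CycW5 libraries of week 5 (n = 9) Pearson's r with IDH2 was 0.94 and Spearman's rho 0.88, and r was 0.98 without the 2 libraries farthest from the median. With OGDH r was 0.91 there and rho 0.90, and r was 0.90 without the 2 farthest. In NoCycW5 libraries of week 9 (n = 9) the values were weaker, with r = 0.16 for IDH2 (rho = 0.43) and r = 0.57 for OGDH (rho = 0.35), the latter -0.37 without the 2 farthest. In NoCycW5 libraries of week 5 (n = 12) r was 0.70 for IDH2 (rho = 0.69), and 0.73 without the 2 farthest. For OGDH r was 0.50 in those libraries (rho = 0.47), and 0.79 without the 2 farthest.

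In CycW5 libraries of week 9 (n = 8), MRPS36 and COX11 had r = 0.91 and rho = 0.93, and r was 0.95 without the 2 farthest libraries. With IDH2 the correlation in these libraries was r = 0.94 and rho = 0.83, but r was 0.61 without the 2 farthest, on which it partly rests. OGDH had r = 0.85 and rho = 0.52 there, and r was 0.31 without the 2 farthest. In the other groups COX11 had r = 0.79 in CycW5 and 0.73 in NoCycW5 libraries of week 5. In NoCycW5 libraries of week 9 COX11 had r = 0.73 (rho = 0.52), and 0.33 without the 2 farthest. PRDX6 had r = 0.90 with MRPS36 in CycW5 libraries of week 5 (rho = 0.83) and r = 0.12 in those of week 9 (rho = 0.14). IDH1 had no common sign. In NoCycW5 libraries of week 5 (n = 12) its r with MRPS36 was 0.54 (rho = 0.54), and 0.62 without the 2 farthest. In CycW5 libraries r was -0.34 at week 5 (rho = -0.35) and 0.13 without the 2 farthest, and -0.50 at week 9 (rho = -0.10) and -0.09 without them. In NoCycW5 libraries of week 9 r was -0.82 (rho = -0.55), and -0.38 without the 2 farthest, so that the negative values rest largely on those libraries.

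**Figure D5:**
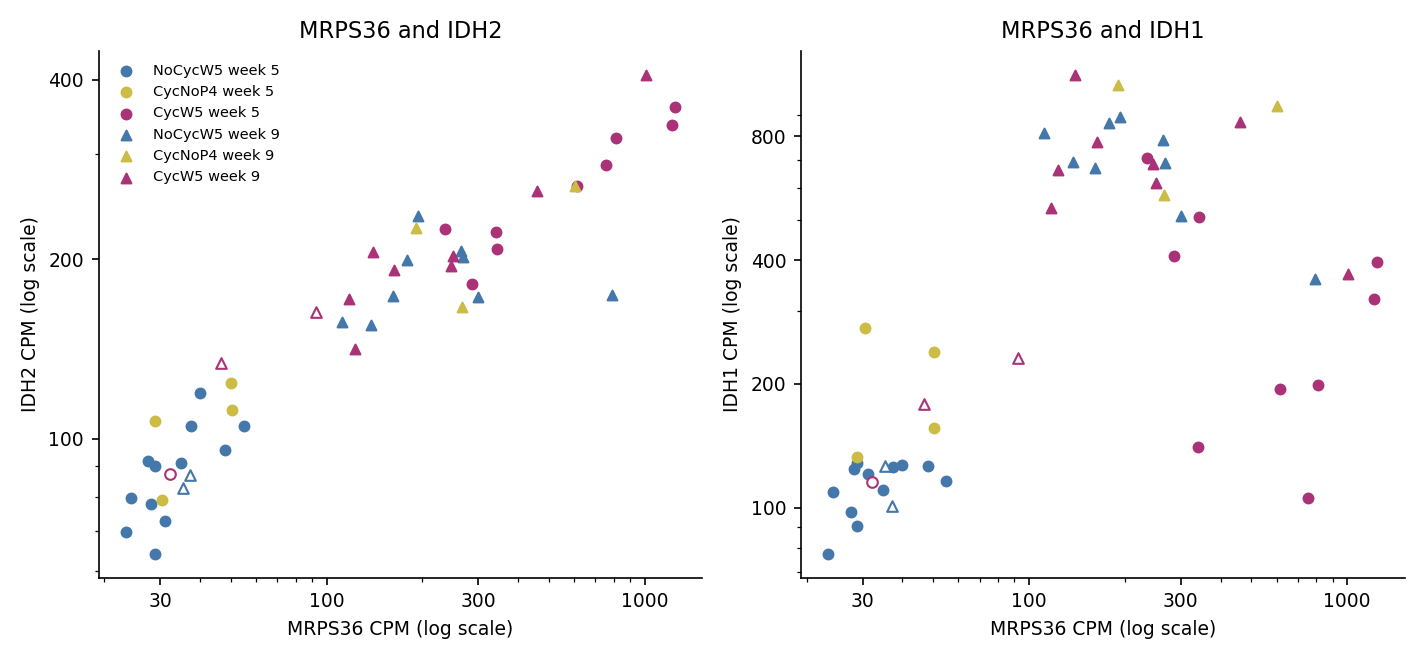
Each point is 1 library, with MRPS36 CPM on the horizontal and IDH2 (left) or IDH1 CPM (right) on the vertical log axis; circles are week 5, triangles week 9, colours the groups of cows and open symbols the 5 libraries that stood apart. IDH2 and MRPS36 are high together within CycW5 libraries of week 5 (r = 0.94), whereas for IDH1 r was -0.34 there (0.13 without the 2 farthest libraries). Library 12 (CycW5, week 5) has 1244 CPM of MRPS36 with 395 CPM of IDH1. Library 81 (CycW5, week 9) has 139.5 and 1128 CPM, so these 2 libraries also differ in week.

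Markers of cell types moved with some of these results. In bulk tissue, fewer cells of a type and less RNA per cell cannot be told apart. Of the 7 epithelial markers 3 carry a symbol here (EPCAM, KRT8 and CLDN4, with EPCAM the most abundant), and none was at 0 in any library. Their summed level was 334 ± 70.9 CPM (mean ± SD) in NoCycW5, 611 ± 297 in CycW5 and 634 ± 195 in CycNoP4 libraries of week 5, and 788 ± 279, 752 ± 234 and 690 ± 265 in those of week 9. In the tested week change of CycNoP4 cows the sums overlapped, at 461 to 882 CPM at week 5 and 468 to 983 CPM at week 9, and none of the 3 markers was called. EPCAM had a log2 fold change of 0.15 ± 0.42 (edgeR, BH P = 0.82), CLDN4 of 0.88 ± 0.83 (BH P = 0.462) and KRT8 of -0.36 ± 0.24 (BH P = 0.289). The stromal marker PDGFRA had 0.76 ± 0.30 (BH P = 0.067), and the endothelial markers CDH5 and VWF had 0.10 ± 0.25 (BH P = 0.808) and -0.26 ± 0.34 (BH P = 0.609). Across the status comparison of week 5 the endothelial sum was 388 ± 106 CPM in NoCycW5 and 231 ± 59.5 CPM in CycW5 libraries, and the part of these cell types in the differences was not tested. ESR1, the estrogen receptor taken as a marker of endometrium, was present in every library (28.9 to 238 CPM) and fell by 1.16 ± 0.42 on the log2 scale in the CycNoP4 week change (edgeR, BH P = 0.0435). Leukocyte and smooth muscle markers had no symbol and were not analysed here.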

How the data were processed

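RNA-seq of endometrial biopsies gave 50 libraries in 6 groups of cyclicity status by week. The authors trimmed single-end reads of stranded mRNA libraries, aligned them to the UMD3.1 assembly with Hisat2 and deposited whole-number read counts per Ensembl gene, made with FeatureCounts by the study's methods; the submitters' processing notes also name StringTie and edgeR. Symbols and the choice of genes came from the study's lists of called genes; the genes, lists and tests here were chosen with earlier results of these data known. Lists of nuclear and mitochondrial genes could be matched only where those lists give a symbol, so of 13 mitochondrially encoded genes the share of reads could be taken over CYTB and ND3 alone, and was tested only in CycNoP4 cows.

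Counts were filtered (filterByExpr), TMM-normalized and fitted as 6 group means with edgeR 4.0.16 (R 4.3.3) quasi-likelihood dispersions, robust. Genes with BH P ≤ 0.05 over all 16120 tested genes were called. SE is the log2 fold change divided by the root of its F statistic. Log2 CPM for principal components used a prior count of 2. The exact permutation test of the share of reads used scipy 1.17.1. Alternatives were DESeq2 1.42.0 (size factors, Wald test), limma 3.58.1 (voom, without and with library weights), no filter, at least 1 CPM in 10 libraries, a fit of only the compared groups and leaving out each library. The genes named are the 16, CYTB, ND3, called regulators and, for each list, up to 2 called genes a direction; other genes of the lists, and 4 genes known only by a description, were named after their values were seen. Cow and microbiota were not fitted, as the labels do not link them to libraries, and no batch is given there. The fits were tested on simulated data, and no value from that check is reported here. No gene sequence was used here. The values of 1 listed gene are not reported here.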

Additional observations from a re-analysis of the deposited data

Results flagged for a closer look

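Some libraries lay far from the others of their group by Dixon's criterion, which chance meets in about 1 of 20 groups. Of 48 sets of libraries checked (16 genes in the 3 groups with 4 to 10 libraries), 6 held such a library, all in CycW5 cows at week 9. Library 72 was highest for MRPS36 (1008 CPM, the next 460 CPM), OGDH (1080 CPM, the next 573 CPM) and IDH2 (407.5 CPM, the next 260.0 CPM), so that the same library accounts for 3 of the 6. Library 89, one of those that stood apart, was highest for NDUFB10 (87.2 CPM, the next 70.1 CPM) and MRPS18B (33.3 CPM, the next 29.5 CPM). Library 83 was highest for PRDX6 (909 CPM, the next 486 CPM). The week change also differed between NoCycW5 and CycW5 cows for 10 of the 29 genes. The test was edgeR's quasi-likelihood test of the difference, which called 7.66% of all genes. The genes were chosen on the comparisons that make up this difference.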

How the results depend on the processing

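Of 3680 values of the 16 genes under alternatives, 3660 moved by less than the spread between libraries or, in the tested CycNoP4 week change, kept their side of the threshold; the other 20 were calls won or lost in that comparison. Values that were not called could change sign there (PRDX6 from 0.48 to -0.09, MRPS18B from 0.02 to -0.07 and NDUFB10 from -0.11 to 0.01 at the farthest). Counts of the 29 genes called for status at both weeks, for the NoCycW5 week change and for CycNoP4 against CycW5 cows stayed within 1.5 times under every alternative. For the CycW5 week change (0) they became 10 with limma-voom library weights and 3 without the libraries that stood apart (an alternative chosen after seeing the data), and 0 to 2 without 1 library (2 without library 72). For the difference of week changes (10) they were 5 with limma-voom and 17 with library weights, and 7 to 15 without 1 library. For CycNoP4 against NoCycW5 cows (7) they were 4 with library weights and 3 in a fit of those groups, and 0 to 9 without 1 library (0 without library 51, 1 without library 56). For the CycNoP4 week change the 29 gave 9, and 3 to 10 without 1 library (5 without library 79, 3 without library 94), and the 16 gave 6, and 1 to 7. The log2 fold change of ECI2 in CycNoP4 against NoCycW5 cows (1.57) was -0.16 to 1.89 without 1 library, and reversed without library 51. Of all genes, the CycNoP4 week change called 3158, but 1231 in a fit of those groups and 4952 with library weights. A fit of the compared groups called 904 in place of 2650 for CycNoP4 against NoCycW5 and 1771 in place of 2887 against CycW5 cows. The NoCycW5 week change called 5551, and 8765 with library weights. The CycW5 week change called 20, and 251 with DESeq2, 0 with limma-voom, 3013 with library weights, 8 with no filter, 7 in a fit of those groups and 43 without the libraries that stood apart. The difference of week changes called 1234, and 1879, 578 and 3115 with DESeq2, limma-voom and library weights and 2238 without the libraries that stood apart. Status at week 9 called 0, and 15 with DESeq2 and 1 with library weights or a fit of those groups. Where not stated, the cause was not tested.

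No paired analysis was possible because the labels do not link libraries to cows and their replicate numbers only name libraries. With 3 and 4 CycNoP4 libraries, and symbols only for genes the study called, these data limit what can be said of the pathway as a whole.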
